A study of Mus musculus with 9 samples.

Results

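The genes described here are 10 antioxidant and detoxification genes linked to the transcription factor NRF2, followed in mouse lung after treatment with anti-PD1 nanocapsules, free anti-PD1 or phosphate-buffered saline (PBS). They are Nfe2l2, Gclc, Gclm, Slc7a11, Gsr, Txnrd1, Srxn1, Prdx1, Nqo1 and Hmox1. They were taken by symbol from the deposited table of gene expression, in which all 10 were found once among 45706 genes, 23474 of which had a value above 0 in at least 1 library. The donors were BALB/c females, 4 to 6 weeks of age, with 4T1 cells, a mouse mammary carcinoma line, implanted in the right flank. Mice were given nanocapsules of anti-PD1, free anti-PD1 or PBS on days 7 and 14 after engraftment, and lungs were taken on day 21, with 3 lungs in each of the 3 groups. The labels state 150 µg per mouse beside the nanocapsules and do not say clearly whether this also holds for the free antibody. Antibodies against PD1 block an inhibitory receptor of T cells. All mice carried the flank graft, so no group is from tumour-free mice, and the PBS lungs are the controls. Whether the lungs held tumour cells was not tested.

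NRF2, encoded by Nfe2l2, is a transcription factor that the adaptor KEAP1 holds in the cytoplasm and marks for degradation. Electrophiles and oxidants modify KEAP1, and NRF2 then builds up in the nucleus and binds antioxidant response elements together with small MAF proteins. Its targets make glutathione, reduce thioredoxin and peroxiredoxins, detoxify quinones and break down haem, and in the lung they are known for the defence against oxidants and inhaled particles. Because NRF2 is controlled mainly at the protein level, its targets are often read in place of its own mRNA, also as a sign of stress from nanomaterials.

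Promoter sequence was matched in RefSeq (GRCm38.p6) for 7 of the 10 genes, all but Gclc, Gsr and Hmox1, with 9 windows of the 250 bases before a start site. The 3 genes shown first, Gclm, Nqo1 and Prdx1, are those among the matched genes in which the nanocapsule and anti-PD1 lungs did not overlap. Srxn1 is shown beside them as an example of a gene whose groups overlapped in all 3 comparisons. Nfe2l2 and Slc7a11 overlapped in all 3 too, and their windows are not shown. Capitals mark matches, on either strand, to the core of the antioxidant response element, TGACNNNGC, or to the shorter motif TGACTCA bound by AP-1 factors. The motifs can overlap, as they do in Prdx1. The Gclm window lies at chr3:122245307-122245556 on the plus strand, that of Nqo1 at chr8:107403206-107403455 on the minus strand, that of Prdx1 at chr4:116685349-116685598 on the plus strand and that of Srxn1 at chr2:152105274-152105523 on the plus strand.
Gclm: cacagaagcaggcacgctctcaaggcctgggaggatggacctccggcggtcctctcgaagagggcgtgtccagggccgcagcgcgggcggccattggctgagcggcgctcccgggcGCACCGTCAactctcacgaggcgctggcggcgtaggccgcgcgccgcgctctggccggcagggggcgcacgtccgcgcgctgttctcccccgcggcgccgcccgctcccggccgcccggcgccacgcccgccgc
Nqo1: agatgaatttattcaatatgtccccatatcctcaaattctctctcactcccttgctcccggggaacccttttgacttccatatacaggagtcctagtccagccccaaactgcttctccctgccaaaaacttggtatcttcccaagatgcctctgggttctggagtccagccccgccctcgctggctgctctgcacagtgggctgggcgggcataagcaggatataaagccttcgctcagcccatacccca
Prdx1: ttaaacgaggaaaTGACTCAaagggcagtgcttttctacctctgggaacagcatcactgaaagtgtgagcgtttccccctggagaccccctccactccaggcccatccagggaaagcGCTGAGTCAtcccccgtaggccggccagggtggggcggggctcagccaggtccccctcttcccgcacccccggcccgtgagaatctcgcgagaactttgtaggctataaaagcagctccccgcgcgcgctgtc
Srxn1: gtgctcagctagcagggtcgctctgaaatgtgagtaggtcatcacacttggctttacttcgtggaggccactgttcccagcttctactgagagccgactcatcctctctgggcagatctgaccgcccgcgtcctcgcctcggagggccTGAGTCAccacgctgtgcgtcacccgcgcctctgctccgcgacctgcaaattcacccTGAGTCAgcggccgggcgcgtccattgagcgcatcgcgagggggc
The core motif was found in 4 of the 7 matched genes, namely Nfe2l2, Gclm, Prdx1 and Txnrd1, that is in 4 of their 9 windows, of which Txnrd1 has 3 with 1 match, and in 10.2% of the 32851 windows of this length in the table. The AP-1 motif was found in 2 of the 9 windows, those of Prdx1 and Srxn1, and in 4.46% of all windows. Only the core as written was searched, so a window without a match may still hold a variant of the element. In Srxn1 the AP-1 match from base 45 to base 39 reads TGAGTCAGC with the bases after it. It has TGAG where the core has TGAC and was not counted as a core match. Gclm, with 1 core match from base 134 to base 126 before its start, and Nqo1, with no match to either motif in this window, both lay higher in nanocapsule than in anti-PD1 lungs, and Prdx1, with 1 core match and 2 AP-1 matches, lay lower.

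Expression was given in TPM, a level corrected for transcript length that sums to the same total in each library. It can be compared between genes, and as it keeps no read numbers, depth was unknown. Each library had 12194 to 13407 genes at 1 TPM or more, and no libraries were identical. The marker lists of lung epithelium, for alveolar type 2, alveolar type 1 and airway cells, had no member at 0 TPM in any library. In whole lung, fewer cells of a type and less RNA per cell cannot be told apart. The libraries differed in cell type markers. The summed level of 10 neutrophil markers was 173990 to 197280 TPM in nanocapsule lungs, 114090 to 130760 TPM in anti-PD1 lungs and 136070 to 188640 TPM in PBS lungs. The highest PBS value was that of PBS lung 2, which lay among the nanocapsule lungs. Whether the numbered lungs of a group came from separate animals is not labelled, and the p-values cover the spread between these samples alone.

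Prdx1 had the highest level of the 10 genes in each group and Hmox1 the second highest. In PBS lungs the order was Prdx1 at 244 ± 55.2 TPM, Hmox1 at 148 ± 6.95, Gclm at 116 ± 11.0, Nfe2l2 at 102 ± 9.70, Gsr at 76.2 ± 18.8, Txnrd1 at 42.9 ± 1.94, Gclc at 10.1 ± 1.47, Srxn1 at 8.18 ± 1.49, Slc7a11 at 4.85 ± 0.846 and Nqo1 at 3.47 ± 1.20 TPM (SD, n = 3). The PBS ranges of Gclm and Nfe2l2 overlapped, as did those of Gclc and Srxn1 and those of Slc7a11 and Nqo1, so these neighbours were not separated by the spread between lungs. In nanocapsule lungs the ranges of Hmox1 and Gclm overlapped too, with Gclm above Hmox1 in lung 1. There Gsr, at 101 ± 11.8 TPM, lay above Nfe2l2, at 88.0 ± 9.23 TPM, and their ranges overlapped (SD, n = 3). In anti-PD1 lungs Nqo1, at 2.42 ± 0.538 TPM, was the lowest of the 10 (SD, n = 3).

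**Figure D1:**
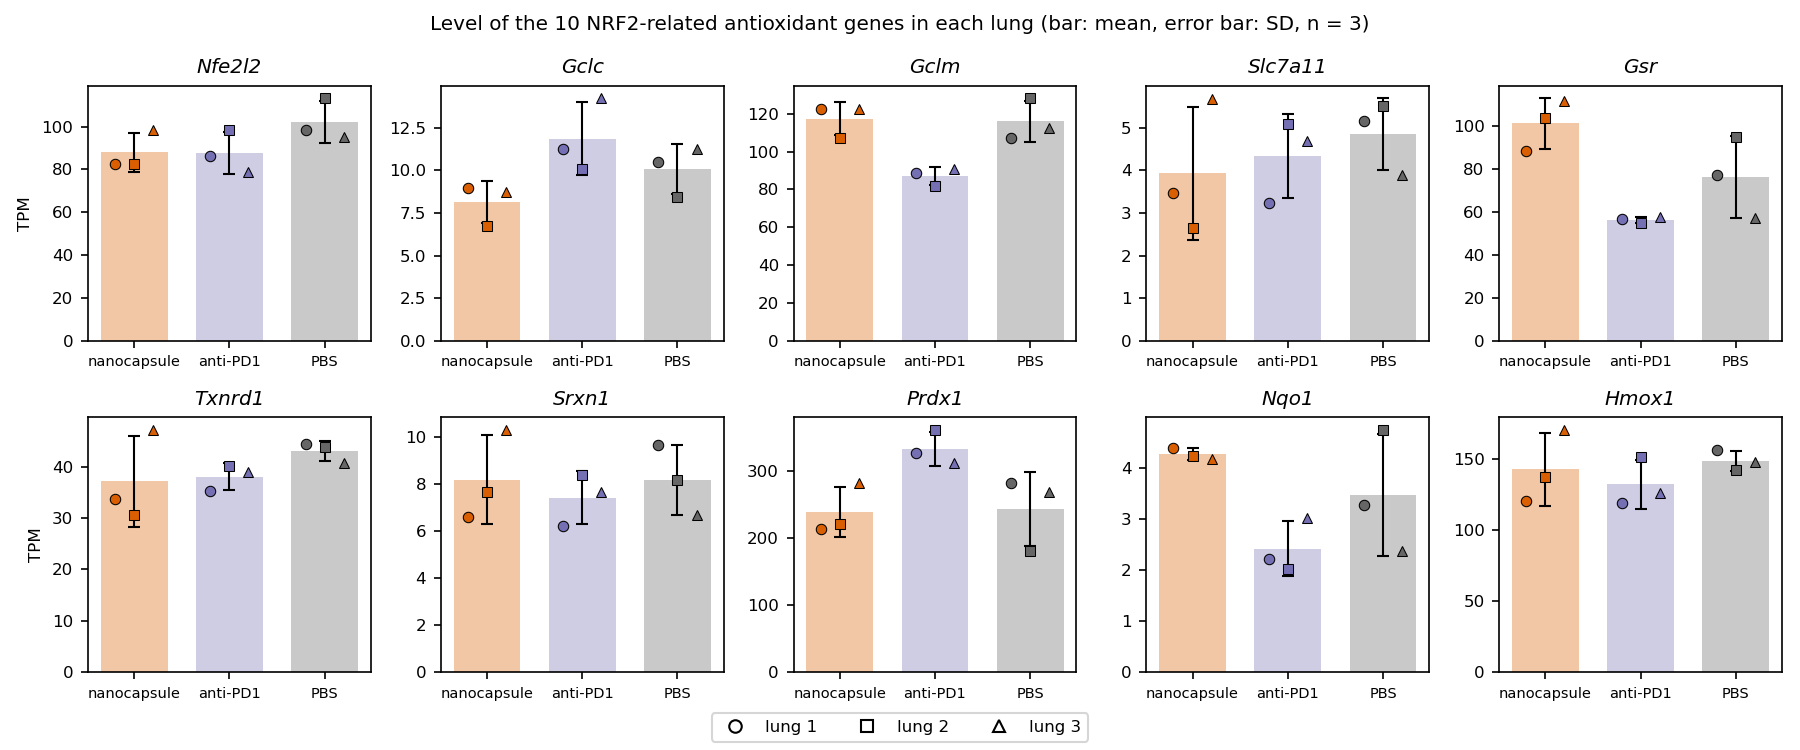
Level of each of the 10 genes in TPM on a linear axis from 0, with nanocapsule, anti-PD1 and PBS lungs from left to right. Points are single lungs, bars are group means and error bars are SD (n = 3). Gsr, Gclm and Nqo1 lay higher in all 3 nanocapsule lungs than in all 3 anti-PD1 lungs, Gclc and Prdx1 lay lower, and no gene separated nanocapsule from PBS lungs.

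The first comparison asked whether lungs of mice given nanocapsules differed from PBS lungs in these genes. None of the 10 was called, and in each the nanocapsule and PBS lungs overlapped. Hmox1, Nqo1, Srxn1 and Txnrd1, common readouts of NRF2 activity, were among those that did not pass the test. Over all genes, limma on log2(TPM + 1) called 0.00755% of 13248 genes at an adjusted p under 0.05 in either direction. At an unadjusted p under 0.05 it was 1 of the 10, Gsr, against 10.1% of all genes. Groups that did not overlap were found in 0 of the 10 and in 14.3% of all genes. The median log2 difference of the 10 genes was -0.04 and that of all genes -0.11. By value, 3 of the 10 were higher and 7 lower, where 28.8% of all genes were higher. With median-of-ratios scaling, which brought the median of all genes to 0.00098, 6 were higher and 4 lower.

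Nfe2l2, the gene of NRF2 itself, on chromosome 2 from 75675513 to 75704641 of GRCm38, had 82.7, 82.5 and 98.6 TPM in nanocapsule lungs, 86.1, 98.4 and 78.7 TPM in anti-PD1 lungs and 98.3, 113.3 and 95.2 TPM in PBS lungs. Most treated lungs lay below the PBS lungs, and 1 lung of each treated group lay within the PBS range. The log2 difference was -0.22 for nanocapsule against PBS (SE 0.12, 95% interval -0.47 to 0.04, limma adjusted p = 0.545). For anti-PD1 against PBS it was also -0.22 (SE 0.12, 95% interval -0.48 to 0.04, limma adjusted p = 0.362). These 2 comparisons share the PBS lungs. Between the antibody forms the difference was 0.0045 (95% interval -0.25 to 0.26). These values depend on the scale: with median-of-ratios scaling they were -0.09, -0.30 and 0.20 in the same order, none called.

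Glutamate-cysteine ligase makes the first and rate-limiting step of glutathione synthesis and is built from a catalytic subunit, encoded by Gclc, and a modifier subunit, encoded by Gclm. Gclc had 8.99, 6.74 and 8.74 TPM in nanocapsule lungs, 11.3, 10.1 and 14.2 TPM in anti-PD1 lungs and 10.5, 8.43 and 11.3 TPM in PBS lungs. Gclm had 123, 107 and 122 TPM in nanocapsule lungs, 88.4, 81.9 and 90.8 TPM in anti-PD1 lungs and 107, 128 and 112 TPM in PBS lungs. The nanocapsule lungs lay below all anti-PD1 lungs in Gclc and above all of them in Gclm, so the 2 subunits stood in opposite directions between the antibody forms. Against PBS, the nanocapsule lungs had a log2 difference of -0.27 in Gclc (SE 0.17, 95% interval -0.65 to 0.10, limma adjusted p = 0.591). In Gclm it was 0.02 (SE 0.10, 95% interval -0.20 to 0.24, limma adjusted p = 0.956). Gclm lay lower in all 3 anti-PD1 lungs than in all 3 PBS lungs, by value, at -0.41 on the log2 scale (SE 0.10, 95% interval -0.62 to -0.19, limma adjusted p = 0.211).

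The ratio of Gclm to Gclc, in TPM over TPM, was 13.7, 15.9 and 14.0 in nanocapsule lungs, 7.85, 8.12 and 6.38 in anti-PD1 lungs and 10.2, 15.2 and 9.97 in PBS lungs. The nanocapsule and anti-PD1 lungs were far apart, and the PBS lungs lay above all anti-PD1 lungs, with PBS lung 2 inside the nanocapsule range. The ratio was chosen after the values were seen and was not tested.

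**Figure D2:**
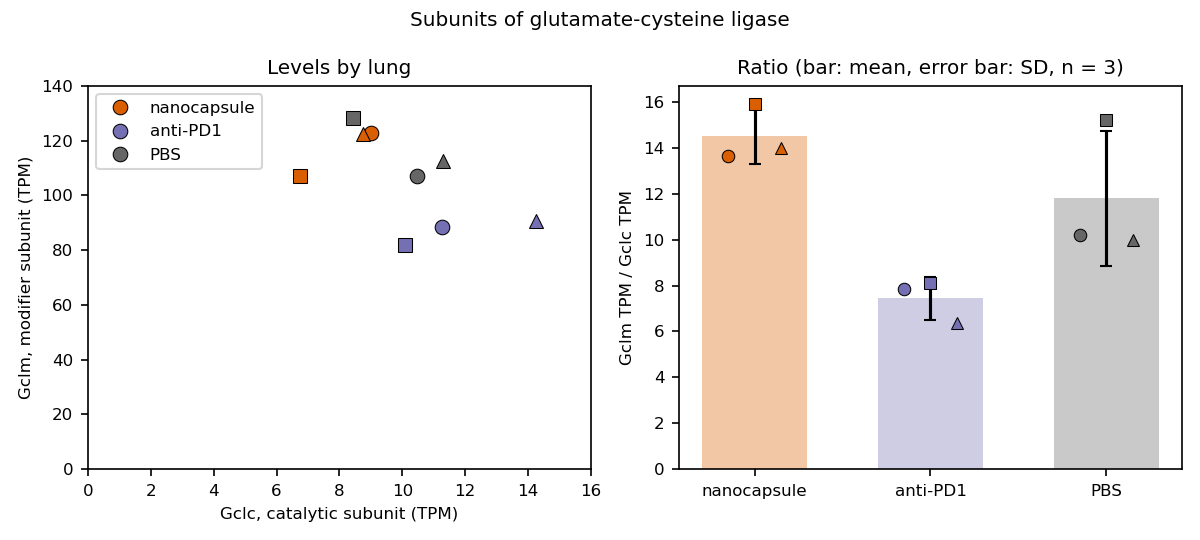
Left, the level of Gclm against that of Gclc in each lung, both in TPM from 0. Right, the ratio of the levels by group, with points for single lungs, bars for means and error bars for SD (n = 3). The anti-PD1 lungs have ratios of 6.38 to 8.12, below all PBS and nanocapsule lungs.

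Slc7a11, the cystine importer that feeds glutathione synthesis, lies on chromosome 3 from 49892526 to 50443614 and was low throughout. It had 3.46, 2.65 and 5.68 TPM in nanocapsule lungs, 3.23, 5.10 and 4.69 TPM in anti-PD1 lungs and 5.15, 5.50 and 3.90 TPM in PBS lungs. The groups overlapped in all comparisons, and nanocapsule lung 3 held both the highest value of its group and of all 9 lungs. For nanocapsule against PBS the log2 difference was -0.28 (95% interval -0.82 to 0.25, limma adjusted p = 0.693), the widest interval of the 10 genes.

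Gsr encodes glutathione reductase, which uses NADPH to return oxidised glutathione to its reduced form, and lies on chromosome 8 from 33652523 to 33698163. It had 88.3, 104 and 112 TPM in nanocapsule lungs, 56.6, 54.8 and 57.7 TPM in anti-PD1 lungs and 77.1, 94.6 and 56.9 TPM in PBS lungs. The anti-PD1 lungs were nearly equal to each other, PBS lung 3 lay among them, and PBS lung 2 lay within the nanocapsule range. Against PBS, the nanocapsule lungs lay at 0.43 on the log2 scale (SE 0.16, 95% interval 0.06 to 0.79, limma adjusted p = 0.440). The anti-PD1 lungs lay at -0.40 against PBS (SE 0.16, 95% interval -0.76 to -0.04, limma adjusted p = 0.269). The size of both values depended on PBS lungs 2 and 3, while neither changed sign with any 1 library left out. The nanocapsule difference was largest in size of the 10 genes with all lungs. It was 0.23 without PBS lung 3 and 0.60 without PBS lung 2. Without PBS lung 3, Slc7a11 (-0.41), Nfe2l2 (-0.27) and Txnrd1 (-0.26) exceeded Gsr in size. Without nanocapsule lung 3, Slc7a11 (-0.53) and Txnrd1 (-0.41) did, against 0.35 for Gsr. The anti-PD1 difference was -0.59 without PBS lung 3 and -0.23 without PBS lung 2.

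Txnrd1, the cytosolic thioredoxin reductase, on chromosome 10 from 82833951 to 82897712, had 33.7, 30.5 and 47.2 TPM in nanocapsule lungs, 35.2, 40.1 and 38.9 TPM in anti-PD1 lungs and 44.3, 43.8 and 40.7 TPM in PBS lungs. Nanocapsule lung 3 lay above all PBS lungs and the other nanocapsule lungs below them. The log2 difference from PBS was -0.23 in nanocapsule lungs (95% interval -0.55 to 0.10, limma adjusted p = 0.603) and -0.17 in anti-PD1 lungs (95% interval -0.50 to 0.15, limma adjusted p = 0.580), where all 3 lay just below the PBS lungs.

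Prdx1, an abundant cytosolic peroxiredoxin that removes hydrogen peroxide, lies on chromosome 4 from 116685544 to 116700822. It had 214, 221 and 282 TPM in nanocapsule lungs, 326, 362 and 313 TPM in anti-PD1 lungs and 283, 181 and 269 TPM in PBS lungs. The anti-PD1 lungs lay above all other lungs, and PBS lung 2 was the lowest of the 9. RefSeq lists a pseudogene, Prdx1-ps, with which reads may be shared. The log2 difference from PBS was 0.47 in anti-PD1 lungs (SE 0.17, 95% interval 0.10 to 0.85, limma adjusted p = 0.235), and 0.27 without PBS lung 2. For nanocapsule lungs it was -0.02 (95% interval -0.39 to 0.36, limma adjusted p = 0.981).

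Srxn1 encodes sulfiredoxin, which repairs overoxidised peroxiredoxins. It had 6.62, 7.66 and 10.3 TPM in nanocapsule lungs, 6.23, 8.41 and 7.69 TPM in anti-PD1 lungs and 9.68, 8.17 and 6.70 TPM in PBS lungs. All groups overlapped, and the nanocapsule difference from PBS was -0.0040 on the log2 scale (95% interval -0.42 to 0.41, limma adjusted p = 0.997).

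Nqo1, a quinone reductase and a classic NRF2 target, lies on chromosome 8 from 107388225 to 107403206. It had 4.40, 4.23 and 4.19 TPM in nanocapsule lungs, 2.22, 2.02 and 3.03 TPM in anti-PD1 lungs and 3.28, 4.76 and 2.38 TPM in PBS lungs. The nanocapsule lungs were nearly equal to each other and lay inside the PBS range. The log2 difference from PBS was 0.27 in nanocapsule lungs (SE 0.21, 95% interval -0.19 to 0.74, limma adjusted p = 0.660) and -0.36 in anti-PD1 lungs (SE 0.21, 95% interval -0.83 to 0.10, limma adjusted p = 0.405). Without PBS lung 3 these were 0.088 and -0.55, and without PBS lung 2 they were 0.47 and -0.16.

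Hmox1, the inducible haem oxygenase, which breaks down haem and is high in macrophages that take up red cells, lies on chromosome 8 from 75093621 to 75100589. It had 120, 137 and 170 TPM in nanocapsule lungs, 119, 151 and 126 TPM in anti-PD1 lungs and 156, 142 and 147 TPM in PBS lungs. All groups overlapped, with the widest range in the nanocapsule group. Against PBS the log2 difference was -0.07 in nanocapsule lungs (SE 0.13, 95% interval -0.37 to 0.23, limma adjusted p = 0.871) and -0.17 in anti-PD1 lungs (SE 0.13, 95% interval -0.47 to 0.13, limma adjusted p = 0.541). The signs of the nanocapsule differences of Srxn1, Prdx1 and Hmox1 from PBS changed with median-of-ratios scaling.

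**Figure D3:**
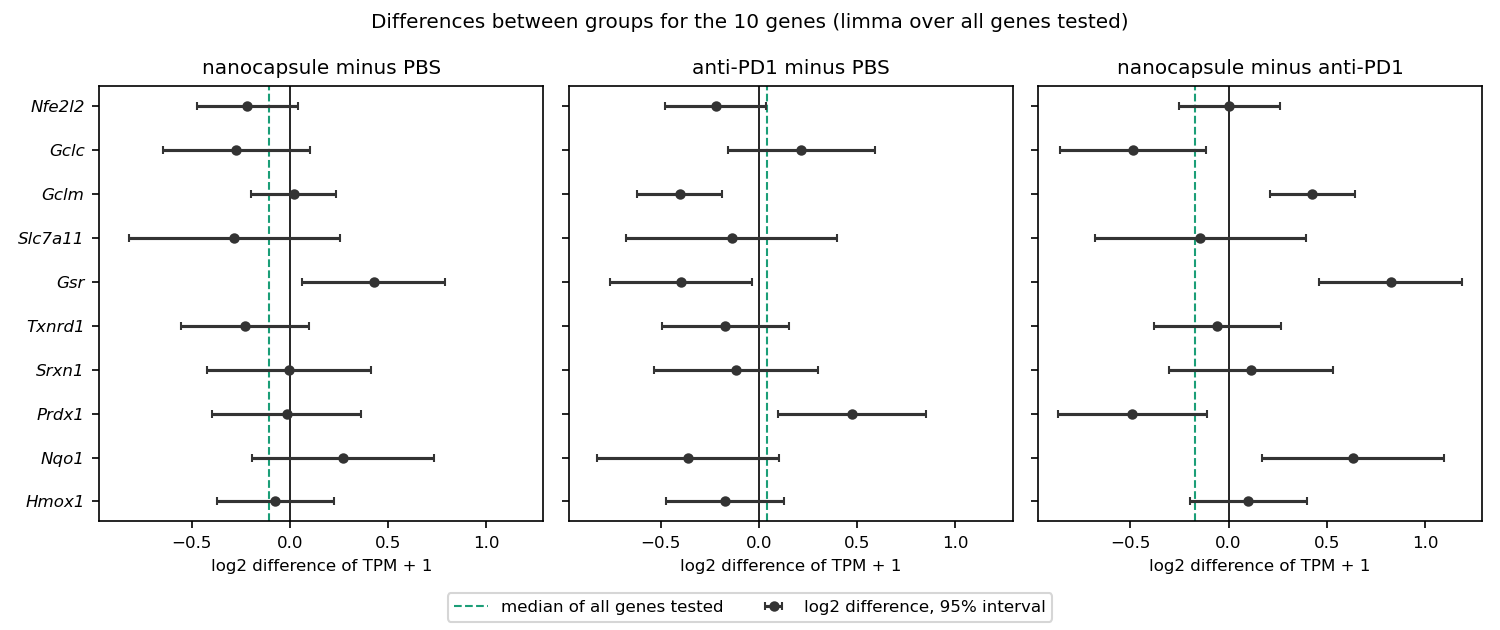
Log2 difference of TPM + 1 for each gene, with the first-named group minus the second and bars for the 95% interval of the limma fit. The dashed line is the median of all genes tested. Against PBS the nanocapsule intervals include 0 except for Gsr, and between the antibody forms 5 of the 10 intervals lie off 0.

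The second comparison set free anti-PD1 against PBS. None of the 10 genes was called, against 0.00755% of all genes. By value, 8 of the 10 were lower and 2, Gclc and Prdx1, were higher, where 56.9% of all genes were higher. The median log2 difference was -0.17 for the 10 genes and 0.04 for all genes. At an unadjusted p under 0.05 it was 3 of the 10, Gclm, Gsr and Prdx1, against 16.5% of all genes. Groups that did not overlap were found in 3 of the 10, with Prdx1 higher and Gclm and Txnrd1 lower, against 25.5% of all genes.

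The third comparison set nanocapsule lungs against free anti-PD1 lungs. Here the log2 differences of the 10 genes had the widest range, -0.49 to 0.83. It was -0.28 to 0.43 for nanocapsule and -0.41 to 0.47 for anti-PD1 against PBS. All genes were spread most widely here too, with quartiles of -0.39 and 0.04. Their quartiles were -0.25 and 0.02 for nanocapsule and -0.13 and 0.22 for anti-PD1 against PBS. Gsr, Gclm and Nqo1 were higher and Gclc and Prdx1 lower in the nanocapsule lungs, each with no overlap, and Nfe2l2, Slc7a11, Txnrd1, Srxn1 and Hmox1 overlapped. None of the 10 was called, against 0.106% of all genes. Groups that did not overlap were found in 33.3% of all genes, against 5 of the 10, and an unadjusted p under 0.05 in 27.7% of all genes, against the same 5 genes. The median log2 difference was 0.05 for the 10 genes and -0.17 for all genes, and 6 of the 10 were higher where 29.2% of all genes were. With median-of-ratios scaling the median of all genes was -0.0019, that of the 10 was 0.25, and 8 were higher and 2 lower, namely Gclc at -0.31 and Prdx1 at -0.29.

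Gsr had the largest log2 difference between the antibody forms, 0.83 (SE 0.16, 95% interval 0.46 to 1.19, limma adjusted p = 0.0557). It passed the threshold in some settings, among them without PBS lung 2 (adjusted p = 0.0166) or PBS lung 3 (adjusted p = 0.0422), with a filter at 5 TPM and from the 2 groups alone, and over all alternatives its adjusted p lay between 0.0166 and 0.209. Gclm differed by 0.43 (SE 0.10, 95% interval 0.21 to 0.64, limma adjusted p = 0.0691) and Nqo1 by 0.63 (SE 0.21, 95% interval 0.17 to 1.10, limma adjusted p = 0.107). Gclc differed by -0.49 (SE 0.17, 95% interval -0.86 to -0.11, limma adjusted p = 0.115) and Prdx1 by -0.49 (SE 0.17, 95% interval -0.87 to -0.11, limma adjusted p = 0.117). Gclm and Prdx1 also passed without PBS lung 2, with adjusted p = 0.0294 and 0.0405, and had adjusted p up to 0.201 and 0.310 over the alternatives. Over all genes limma called 14 of 13248 in the main fit. It called 962 without PBS lung 2, 188 without PBS lung 3, 182 of 9402 at 5 TPM and 476 from the 2 groups alone. Passing in these settings was thus not particular to these genes. Leaving out a PBS lung changes the estimated spread and not these log2 differences. An exact permutation test of 3 lungs against 3 cannot give a two-sided p below 0.1. Hmox1 differed by 0.10 (SE 0.13, 95% interval -0.20 to 0.40, limma adjusted p = 0.630).

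Markers of cell types differed by value between the same groups. All 10 neutrophil markers were higher by value in nanocapsule than in anti-PD1 lungs, 9 without overlap, with a median log2 difference of 0.81, in the direction of Gsr, Gclm and Nqo1. In the direction of Gclc and Prdx1, all 10 alveolar macrophage markers were lower, with a summed level of 1534 to 2491 TPM in nanocapsule and 2784 to 3390 TPM in anti-PD1 lungs. All 10 endothelial markers were lower too, with summed levels of 58.4 to 139 TPM and 188 to 361 TPM in the same groups, as were all 8 B cell markers, with 203 to 283 TPM and 364 to 621 TPM. None of these markers was at 0 TPM in any library. Between nanocapsule and anti-PD1 lungs, 29.2% of all genes were higher and 33.3% of all genes had no overlap. Of the other lists, all 8 T cell, all 8 airway and all 5 tested erythroid markers were lower too. So were 9 of 10 alveolar type 2, 6 of 7 tested alveolar type 1 and 6 of 7 tested fibroblast and smooth muscle markers. PBS lung 2 was the PBS lung with the highest neutrophil sum, the lowest endothelial sum, at 54.4 TPM, the highest Gsr, Gclm and Nqo1, and the lowest Gclc and Prdx1. The part of cell composition in these differences was not tested. For Hmox1, whose groups overlapped, the 10 red pulp-type and interstitial macrophage markers were split, with 4 higher and 6 lower. Their sums overlapped too, at 277 to 332 TPM in nanocapsule and 273 to 339 TPM in anti-PD1 lungs.

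**Figure D4:**
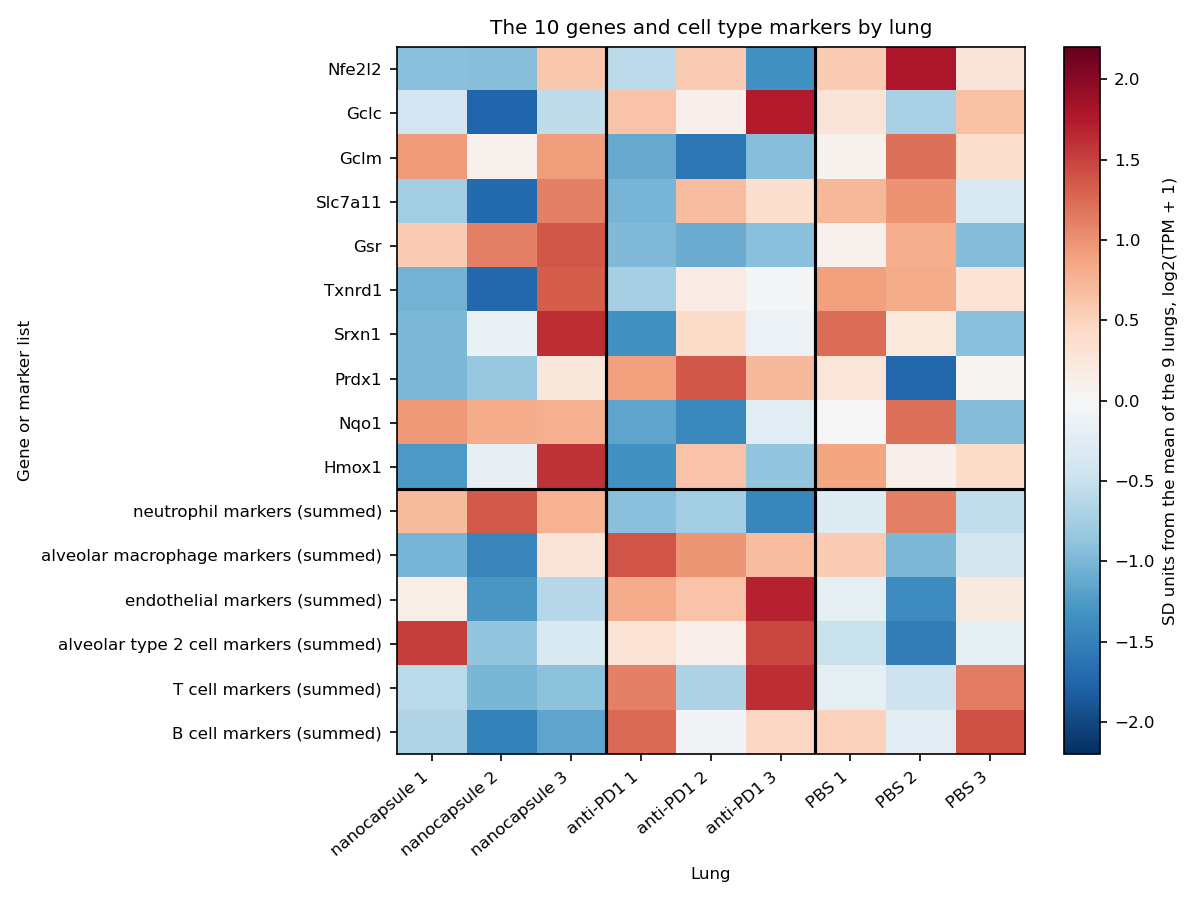
Colour gives the log2(TPM + 1) of each gene, or of the summed level of each marker list, as SD units from its mean over the 9 lungs, with nanocapsule, anti-PD1 and PBS lungs from left to right. Gsr, Gclm and Nqo1 are above or near their means in the nanocapsule lungs and PBS lung 2, the lungs with the highest neutrophil markers, and Txnrd1, Srxn1, Slc7a11 and Hmox1 are highest in nanocapsule lung 3.

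Within groups, the genes did not vary as 1 block. Nanocapsule lung 3 had the highest value of its group in 7 of the 10 genes, among them Nfe2l2, Slc7a11, Txnrd1, Srxn1 and Hmox1, and nanocapsule lung 2 the lowest in 5. In the anti-PD1 group lung 2 was highest in 6 genes and lowest in 4. Without nanocapsule lung 3 the median log2 difference of the 10 genes from PBS was -0.19, against -0.04 with it. The genes most like Nfe2l2 over the 9 libraries were Sntb2, Stat3 and Wsb1, with a mean absolute difference between standardised log2 profiles of 0.16, 0.17 and 0.20 SD units. Those most like Gsr were Plp2, Fam101b and Dstn, at 0.16, 0.17 and 0.17 SD units. For Hmox1 they were Il1rn, which encodes the interleukin 1 receptor antagonist, Mfap3 and Stk3, at 0.22, 0.26 and 0.30 SD units.

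The wider network was followed in 8 lists of 119 genes, 107 of them tested. None was called in any of the 3 comparisons. For nanocapsule against PBS, an unadjusted p under 0.05 was found in 5 higher and 6 lower genes, 10.3% of the 107, which is near the 10.1% of all genes. For anti-PD1 against PBS there were 23 higher and 16 lower, 36.4% beside 16.5% of all genes, and for nanocapsule against anti-PD1 19 higher and 25 lower, 41.1% beside 27.7% of all genes. By value, 51 were higher and 56 lower for nanocapsule against PBS, where 28.8% of all genes were higher, with a median log2 difference of -0.00039 beside -0.11 for all genes. For anti-PD1 against PBS 78 were higher and 29 lower, where 56.9% of all genes were higher, with a median of 0.17 beside 0.04. For nanocapsule against anti-PD1 33 were higher and 74 lower, where 29.2% of all genes were higher, with a median of -0.21 beside -0.17. Groups that did not overlap were found in 10 higher and 6 lower of the 107 for nanocapsule against PBS, beside 14.3% of all genes. Below, 2 genes of each list are named for the smallest p in that comparison. A lack of overlap with PBS in these genes follows in part from the pick.

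The list of NRF2 control held 14 genes of its partners, repressors and degradation. Of these, 4 were higher and 10 lower in nanocapsule against PBS lungs, where 28.8% of all genes were higher. Their median log2 difference was -0.13 beside -0.11 for all genes, so the list lay near the genes at large. Mafk, a small MAF partner of NRF2, was at 43.4 ± 2.45 TPM in nanocapsule and 54.8 ± 8.04 TPM in PBS lungs (SD of 3 lungs, adjusted p = 0.446 by limma). Gsk3b, a kinase that promotes NRF2 degradation, was at 22.7 ± 2.69 and 27.4 ± 1.38 TPM in the same groups (SD of 3 lungs, adjusted p = 0.461 by limma). Both were picked from the list for the smallest p in this comparison. They had no overlap between nanocapsule and PBS lungs, as 2 of the 14 genes did, beside 14.3% of all genes. Both lay lower in anti-PD1 than in PBS lungs too. Keap1 and Bach1, the main repressors, named here for their role and not by their values, had log2 differences of -0.10 and -0.03 from PBS in nanocapsule lungs (limma adjusted p = 0.806 and 0.953).

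Among 17 tested genes of glutathione supply, 8 were higher and 9 lower in nanocapsule against PBS lungs, where 28.8% of all genes were higher. Gss, glutathione synthetase, which completes glutathione after glutamate-cysteine ligase, had 10.8, 9.70 and 10.1 TPM in nanocapsule lungs, 8.76, 8.80 and 10.9 TPM in anti-PD1 lungs and 6.06, 7.27 and 7.56 TPM in PBS lungs. Both treated groups lay above all PBS lungs. Its log2 difference was 0.50 for nanocapsule (SE 0.13, limma adjusted p = 0.363) and 0.39 for anti-PD1 (SE 0.13, limma adjusted p = 0.228) against the shared PBS lungs. Gpx1, the main cytosolic glutathione peroxidase, was at 1841 ± 145 TPM in nanocapsule and 1506 ± 46.1 TPM in PBS lungs (SD of 3 lungs, adjusted p = 0.401 by limma), with no overlap.

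Of 17 tested glutathione S-transferases, whose reads can be exchanged between near-identical copies, 11 were higher and 6 lower in nanocapsule against PBS lungs. Over all genes 28.8% were higher there. In anti-PD1 against PBS lungs 16 were higher and 1 lower, where 56.9% of all genes were higher, with a median log2 difference of 0.45. In nanocapsule against anti-PD1 lungs 2 were higher and 15 lower, where 29.2% of all genes were higher, with a median of -0.46. These 2 comparisons share the anti-PD1 lungs. Several lists of cell markers stood in the same directions, and others did not. In anti-PD1 against PBS lungs all 10 endothelial, all 10 alveolar macrophage and 9 of 10 alveolar type 2 markers were higher by value, with median log2 differences of 1.43, 0.58 and 1.19. In nanocapsule against anti-PD1 lungs all 10, all 10 and 9 of 10 of the same lists were lower, with medians of -1.38, -0.71 and -0.51. Most erythroid, T cell, airway, alveolar type 1 and fibroblast and smooth muscle markers were also higher in anti-PD1 against PBS lungs. There all 10 neutrophil, 5 of 8 B cell and 6 of 10 red pulp-type and interstitial macrophage markers were lower. All 10 neutrophil markers were higher in nanocapsule against anti-PD1 lungs. The summed alveolar type 2 level was 949 to 4390 TPM in nanocapsule, 1775 to 4227 TPM in anti-PD1 and 622 to 1458 TPM in PBS lungs. The part of cell composition in the transferase values was not tested. Mgst1, a microsomal transferase, was at 386 ± 15.7 TPM in nanocapsule and 308 ± 14.3 TPM in PBS lungs, with no overlap (SD of 3 lungs, adjusted p = 0.365 by limma). Gstt2 was at 3.03 ± 0.372 and 4.34 ± 0.934 TPM in the same groups (SD of 3 lungs, adjusted p = 0.486 by limma).

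Of 9 genes of NADPH supply, which feeds glutathione and thioredoxin reductase, 7 were higher and 2 lower in nanocapsule against PBS lungs. Over all genes 28.8% were higher there. The median log2 difference of the list was 0.14 beside -0.11 for all genes. None of the 9 had an unadjusted p under 0.05 there, beside 10.1% of all genes, and the smallest limma adjusted p was 0.548. The part of cell composition in these values was not tested. Tkt, transketolase, had 283, 295 and 302 TPM in nanocapsule lungs, 208, 195 and 212 TPM in anti-PD1 lungs and 256, 292 and 234 TPM in PBS lungs. It stood as Gsr did, with all nanocapsule lungs above all anti-PD1 lungs (log2 difference 0.51, SE 0.09, limma adjusted p = 0.0522). Taldo1, transaldolase, was at 1288 ± 65.7 TPM in nanocapsule and 1147 ± 67.1 TPM in PBS lungs (SD of 3 lungs, adjusted p = 0.586 by limma). G6pdx and Pgd are the NADPH-producing enzymes of the pentose phosphate pathway and were chosen after their values were seen. Their log2 differences between nanocapsule and anti-PD1 lungs were 0.64 and 0.60 (both with limma adjusted p = 0.0557). The list as a whole was mixed in that comparison, with 5 genes higher and 4 lower, where 29.2% of all genes were higher. Its log2 differences ran from -0.53 to 0.64, with a median of 0.06.

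Of 15 thioredoxin and peroxiredoxin genes, 8 were higher and 7 lower in nanocapsule against PBS lungs. For this and the lists that follow, the share of all genes higher against PBS was 28.8%. Sesn3, a sestrin, was at 5.94 ± 1.11 TPM in nanocapsule and 11.2 ± 2.73 TPM in PBS lungs, with no overlap (SD of 3 lungs, adjusted p = 0.365 by limma), and Msra, a methionine sulfoxide reductase, at 84.7 ± 2.73 and 72.1 ± 8.56 TPM (SD of 3 lungs, adjusted p = 0.459 by limma). The 4 superoxide dismutase and catalase genes had log2 differences from -0.12 to 0.03, with Sod3 at 3.18 ± 0.563 and 3.63 ± 1.20 TPM and Sod2 at 15.7 ± 2.03 and 15.3 ± 1.84 TPM in nanocapsule and PBS lungs (SD, n = 3). Of 12 genes of haem and iron, 3 were higher and 9 lower. Among them the iron exporter Slc40a1 was at 268 ± 20.4 TPM in nanocapsule, 177 ± 19.2 TPM in anti-PD1 and 239 ± 35.4 TPM in PBS lungs, and Hmox2, the constitutive haem oxygenase, at 73.1 ± 8.51 TPM in nanocapsule and 79.0 ± 6.81 TPM in PBS lungs (SD, n = 3). Of 19 detoxification genes, 8 were higher and 11 lower, with Ephx1, an epoxide hydrolase, at 14.0 ± 2.85 TPM in nanocapsule and 23.3 ± 6.56 TPM in PBS lungs and Abcc5, an export pump, at 25.1 ± 4.42 and 33.2 ± 4.69 TPM (SD of 3 lungs, adjusted p = 0.458 and 0.423 by limma).

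**Figure D5:**
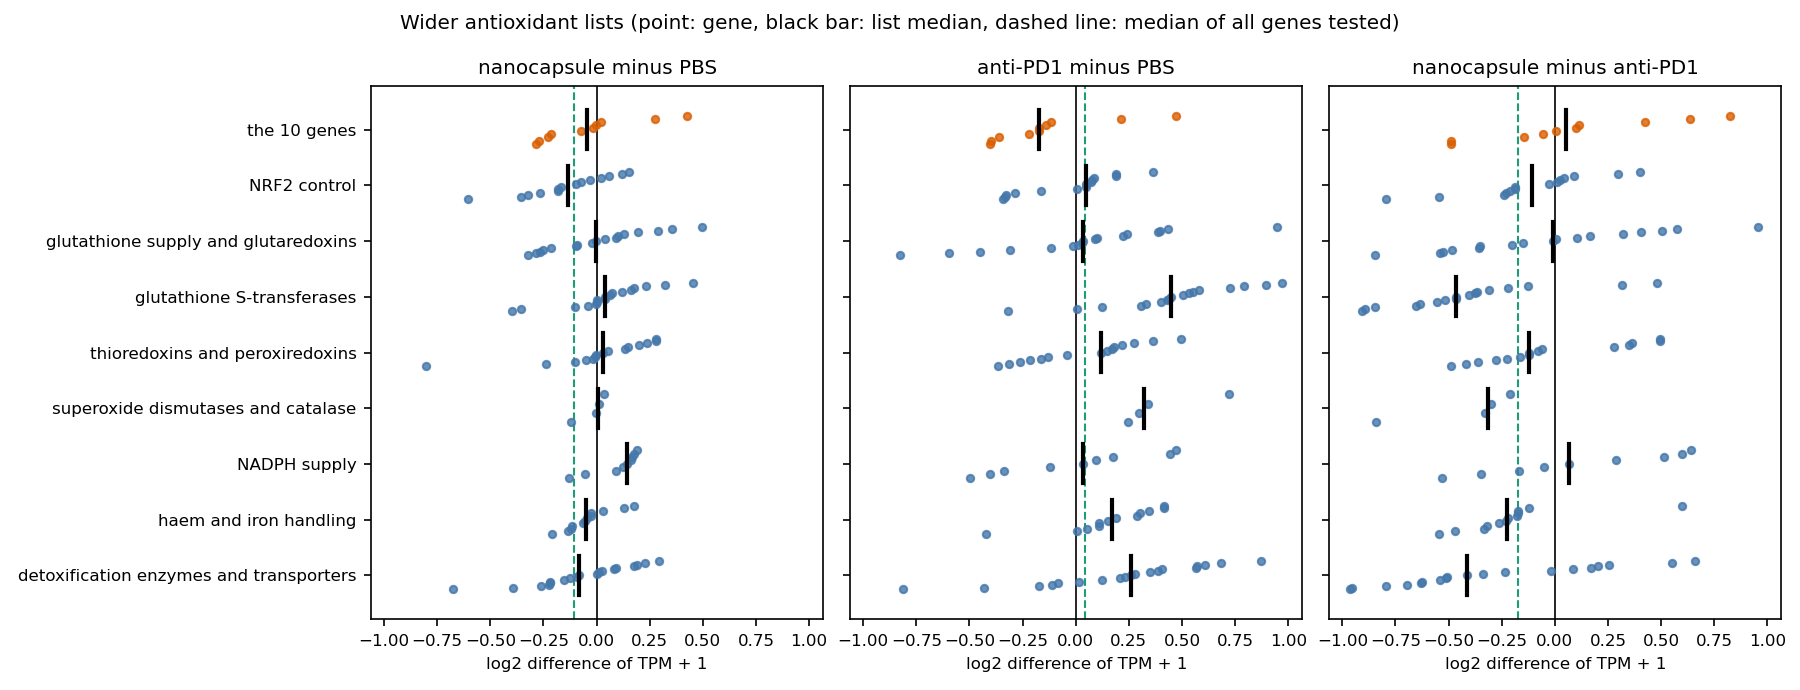
Log2 difference of TPM + 1 of each tested gene of the 10 genes and the 8 wider lists, first-named group minus second, with black bars for list medians and a dashed line for the median of all genes tested. Against PBS the nanocapsule list medians lie between -0.13 and 0.14, and glutathione S-transferases have medians of 0.45 for anti-PD1 against PBS and -0.46 for nanocapsule against anti-PD1.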

How the data were processed

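RNA sequencing of poly(A) RNA from 9 lungs was deposited as gene-level TPM, and the authors' values sum to the same total in every column. Salmon is named in the title of the table, and DESeq2 and GRCm38 in the submitters' processing notes, with no version or role. Filters before deposition are not given in the sources used here. No count test was run, since TPM keep no depth.

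A gene was tested if it reached 1 TPM in 3 or more libraries, which 13248 genes did, among them all 10 genes described. The model was limma (3.58.1, R 4.3.3) with log2(TPM + 1) as response, a mean-dependent prior variance and 1 spread for the 3 groups, leaving 6 residual degrees of freedom. Log2 differences on this scale understate the change of low genes. Tests were two-sided, adjusted by Benjamini-Hochberg over all genes tested, and called at an adjusted p under 0.05. The script was tested on simulated data.

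The 10 genes and the lists were chosen with earlier results of these data known. Named besides them are, for each wider list, the genes called and the 2 with the smallest p for nanocapsule against PBS, and for Nfe2l2, Hmox1 and the gene with the largest difference from PBS the 3 genes of most similar standardised profile. Positions are from GENCODE M21. Alternatives changed 1 choice at a time: pseudocount, filter, scaling, trend, groups fitted, replicate block and each library left out. Scaling without S100a8 and S100a9 also changed which genes reached 1 TPM, so 13570 genes were tested there.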

Additional observations from a re-analysis of the deposited data

How the results depend on the processing

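Over 9 alternatives of pseudocount, filter, scaling, variance model, groups fitted and block, 253 differences of the 10 genes kept direction and side of the threshold, 6 passed it and 8 changed sign. With single libraries left out these numbers were 246, 4 and 20. Changes of filter, variance model, groups fitted or block leave the log2 difference itself unchanged. The same holds where the library left out is from the group not compared. In these settings direction could not change, so the totals do not measure how stable the directions are. Median-of-ratios scaling gave 0.10 for Srxn1, 0.11 for Prdx1 and 0.050 for Hmox1 in nanocapsule against PBS, and 0.0089 for Slc7a11 and 0.14 for Txnrd1 in nanocapsule against anti-PD1, where the median of the 10 genes became 0.25. Without S100a8 and S100a9, Srxn1 was 0.032 and Prdx1 0.024 in the first comparison and Txnrd1 0.025 in the last. Without single libraries, nanocapsule against PBS ranged from -0.035 to 0.095 for Gclm, -0.16 to 0.12 for Srxn1, -0.22 to 0.10 for Prdx1 and -0.21 to 0.043 for Hmox1, and anti-PD1 against PBS from -0.26 to 0.021 for Slc7a11. Nanocapsule against anti-PD1 ranged from -0.080 to 0.089 for Nfe2l2, -0.39 to 0.050 for Slc7a11, -0.24 to 0.069 for Txnrd1, -0.046 to 0.24 for Srxn1 and -0.035 to 0.22 for Hmox1. The medians of the 10 genes ranged from -0.19 to 0.015, from -0.26 to -0.11 and from -0.063 to 0.14 in nanocapsule against PBS, anti-PD1 against PBS and nanocapsule against anti-PD1. The cause of these changes was not tested.

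Over all genes, limma called 1 gene for nanocapsule against PBS, 2 with either other pseudocount or without trend, 0 without a filter, 4 with either scaling and 0 to 4 without single libraries. For anti-PD1 against PBS it called 1, and 0 with pseudocount 0.1, either scaling or no trend, and 0 to 3 without single libraries. For nanocapsule against anti-PD1 it called 14, with 3 without a filter, 182 at 5 TPM, 22 and 71 with median-of-ratios scaling and without S100a8 and S100a9, 2 without trend, 476 from the 2 groups alone and 0 to 962 without single libraries, the highest without PBS lung 2. Gsr passed at 5 TPM (adjusted p = 0.0430), and Gsr and Gclm from the 2 groups alone (limma adjusted p = 0.0226 and 0.0486). Nqo1 was not tested at 5 TPM.

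Lungs share replicate numbers across groups. Deviations of same-numbered lungs correlated at -0.182 to 0.279 and those of differently numbered lungs at -0.258 to 0.225. For anti-PD1 against PBS the same-numbered values were 0.064, 0.279 and 0.278, and in the other comparisons they had both signs. The ranges overlapped and no batch is labelled, so the main fit did not take the numbers as pairs, but pairing was not excluded. With the replicate block limma called 5 genes for nanocapsule against PBS, 1 for anti-PD1 against PBS and 1095 for nanocapsule against anti-PD1, and Gclc, Gclm and Gsr passed in the last (adjusted p = 0.0405, 0.0483 and 0.0386).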
